A study of Mus musculus with 4 samples.

Results

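The 10 genes described here respond to cytokine receptors through the transcription factor STAT5 and its relatives, and were measured in mouse haematopoietic cells transformed by an MLL-ENL fusion. They are the kinase genes Pim1, Pim2 and Pim3, the feedback inhibitor genes Cish, Socs1, Socs2 and Socs3, the milk protein gene Csn2, the receptor chain gene Il2ra and the cytokine gene Osm, 10 of the 55426 genes in the deposited tables. They are known targets of this pathway and were chosen by the lower values of Pim1, Csn2 and Il2ra in the same comparison that is described here, so their differences between the groups are given as a description. Calls from the fit over all genes are counted for them further on only beside the share of all genes called, and support nothing. The cells came from lineage-negative bone marrow and are labelled transformed HSPCs (haematopoietic stem and progenitor cells). In 1 group of 2 libraries the cells carried the MLL-ENL fusion, in which MLL, a histone methyltransferase, has lost its C-terminal part and is joined to ENL, a chromatin reader. In the other group of 2 libraries the fusion held ENL residues 372 to 559 and lacked the YEATS domain, which binds acylated lysines of histones (MLL-ENL dYEATS, shortened to dYEATS in what follows). Both lines were kept in IMEM with fetal bovine serum and antibiotics, and the sources used here give no added cytokine and neither age nor strain of the mice. They do not say which ENL residues the MLL-ENL fusion holds, so the loss of the YEATS domain cannot be told apart from other differences between the fusions.

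Libraries within a group are called technical replicates by the series, so the spread given here is between libraries of what may be 1 line per genotype, and line and genotype cannot be told apart. Library totals lay between 27812855 and 28814798 expected counts. Values are CPM (counts scaled to a common library size) or FPKM, which is also scaled by gene length and is the unit used to compare genes with each other. Log2 fold changes take dYEATS minus MLL-ENL and carry a standard error (SE). A mean CPM given with ± carries the standard deviation (SD) of its group's libraries. Chi-square per degree of freedom was 89.8 between the MLL-ENL libraries and 1.99 between the dYEATS libraries. The log2 ratio of MLL-ENL library 1 over MLL-ENL library 2 fell with exonic length (Spearman's rho = -0.405 across 13231 genes, which are not independent replicates). The labelled cell type was checked against its markers. Of 10 stem and progenitor markers Ptprc, Spi1, Kit and Cd48 reached a mean of 1 CPM in a group, whereas Cd34, Flt3 and Slamf1 lay near or at 0. Of 14 granulocyte and monocyte markers 13 reached it, with a summed level of 7401 to 8514 CPM with MLL-ENL and 4842 to 4901 CPM with dYEATS. Members of that list went both ways: Mpo fell from a mean of 530 to 60.9 CPM (adjusted p = 0.000429) and Elane from 3417 to 1795 CPM (0.0105), whereas S100a8 rose 4.46-fold (0.00198) and S100a9 4.88-fold (0.000457), by edgeR's test.

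Cytokines such as interleukin-3, GM-CSF, growth hormone and prolactin bind receptors that carry JAK kinases. The kinases phosphorylate STAT proteins, which then enter the nucleus and bind DNA at a short palindromic motif. STAT5 was first described in the mammary gland as the factor that drives the casein genes, and in blood cells it is known for inducing the PIM survival kinases and the CIS and SOCS proteins, which shut the same receptors off again.

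Pim1 was the most abundant of the genes and was lower in the dYEATS cells, while its relative Pim3 was higher. Pim1, a serine/threonine kinase that supports survival and growth (chromosome 17, 29490753 to 29496112, plus strand, GRCm38), had 505 and 556 CPM with MLL-ENL and 246 and 241 CPM with dYEATS. Both MLL-ENL libraries lay above both others, and the log2 fold change was -1.12 ± 0.11 (SE, n = 2 per group), a 2.18-fold difference. In these bulk samples fewer cells with a transcript and less of it per cell cannot be told apart. Pim3, a kinase with overlapping substrates (chromosome 15, 88862186 to 88865726, plus strand), lay at 7.58 and 10.8 CPM against 23.0 and 21.3 CPM. The dYEATS libraries were the higher ones, with a log2 fold change of 1.27 ± 0.19, or 1.04 and 1.55 with MLL-ENL replicate 1 or 2 left out. Pim2 (chromosome X, 7878262 to 7883432, plus strand), the third kinase of the family, lay at 6.39 and 6.65 CPM against 7.42 and 7.22 CPM. Its libraries also did not overlap, but the difference was small (log2 fold change 0.17 ± 0.15).

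Set against each other by FPKM, Pim1 outweighed both relatives in every library. With MLL-ENL it stood at 208 and 242 FPKM, 49.7 and 47.2 times the level of Pim3. With dYEATS it stood at 108 and 105 FPKM, 9.86 and 10.3 times the level of Pim3. Summed over the family the level was 216 and 251 FPKM against 124 and 120 FPKM. The share of Pim1 in that sum was 96.1% and 96.4% with MLL-ENL and 87.2% and 87.4% with dYEATS. The share of Pim3 was 1.93% and 2.04% with MLL-ENL and 8.84% and 8.44% with dYEATS. An antisense gene, Gm26885, overlaps the start of Pim1 and had 1.43 to 2.06 CPM over the 4 libraries. The sources used here do not say whether the authors' counting used strand, so reads of the overlap cannot be told apart. The same holds for Cish, which overlaps Gm17040 and Gm17041 on the other strand (at most 0.107 CPM).

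**Figure D1:**
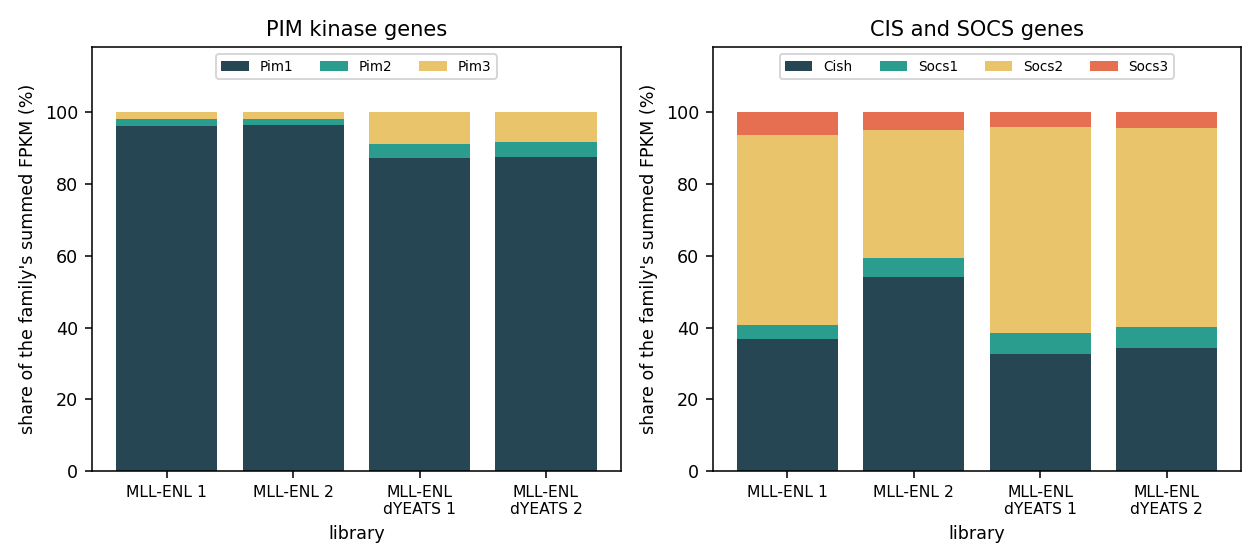
Stacked bars of each gene's share (%) of the summed FPKM of its family in each library, PIM kinase genes on the left and CIS and SOCS genes on the right. Pim1 takes 96.1% and 96.4% with MLL-ENL and 87.2% and 87.4% with dYEATS, and in the right panel the MLL-ENL libraries differ from each other in the share of Cish (36.9% and 54.2%).

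The inhibitor genes did not move as a block. Cish encodes CIS, an SH2 protein that occupies STAT5 docking sites on receptors (chromosome 9, 107296026 to 107302784, plus strand). It had 28.8 and 45.7 CPM with MLL-ENL and 21.0 and 21.6 CPM with dYEATS. Both MLL-ENL libraries were higher, but replicate 1 stood nearer to the dYEATS libraries than to replicate 2. The log2 fold change of -0.81 ± 0.23 became -1.10 with MLL-ENL replicate 1 left out and -0.44 with replicate 2 left out. Cish has 6419 exonic bases, and how far the length trend between the MLL-ENL libraries enters this gap was not tested.

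Socs3, which blocks JAK kinases at gp130-type receptors (chromosome 11, 117966079 to 117970047, minus strand), had low values of 3.88 and 3.41 CPM against 2.04 and 2.20 CPM. The groups did not overlap, and the log2 fold change was -0.78 ± 0.20. Socs1, the strongest brake on interferon and IL-2 type signals (chromosome 16, 10782240 to 10785536, minus strand), lay at 2.65 and 4.05 CPM against 3.27 and 3.21 CPM. Its MLL-ENL libraries lay on either side of the dYEATS libraries. Socs2, which restrains growth hormone signalling (chromosome 10, 95385362 to 95417180, minus strand), lay at 19.5 and 13.5 CPM against 16.7 and 15.2 CPM and overlapped in the same way. The sign of both depended on the library left out: Socs1 was -0.32 and Socs2 0.25 on the log2 scale without MLL-ENL replicate 1, and they were 0.29 and -0.29 without MLL-ENL replicate 2. By FPKM Socs2 and Cish made up most of the 4 genes' sum of 21.8 to 31.0 FPKM in every library.

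Csn2, the gene of beta-casein and the classical STAT5 target of the mammary gland (chromosome 5, 87692624 to 87699630, minus strand), had reads in the MLL-ENL libraries and none in the dYEATS libraries. With MLL-ENL it had 413 and 502 counts, or 15.4 and 17.9 CPM, and with dYEATS 0 and 0 counts. Against a floor of 3 counts per library this is at least 159-fold lower. At 17.6 and 21.9 FPKM it was second only to Pim1 among the 10 genes in the MLL-ENL libraries. The other genes of the casein cluster had next to no reads. Csn1s1, Csn1s2b, Csn3 and Odam had no count, and Csn1s2a had 2 counts, both in MLL-ENL replicate 2. Sult1b1 and Csn1s2a, the nearest genes with any count on either side of Csn2, had 1 and 2 counts over all 4 libraries, at distances of 154 and 74.9 kb. Among milk genes outside the cluster, Wap, Lalba and Btn1a1 had no count. Xdh (mean ± SD of 45.6 ± 1.44 and 50.3 ± 0.180 CPM, adjusted p = 0.412) and Mfge8 (means of 1.17 and 1.14 CPM, adjusted p = 0.945) were not called. With MLL-ENL replicate 2 left out the log2 fold change of Xdh was 0.17.

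The start regions of Csn2 and Cish are shown because both hold the sequence to which STAT5 is known to bind, TTCNNNGAA, which reads the same on both strands. Csn2 had no count with dYEATS, whereas Cish was lower in both dYEATS libraries by an amount that the main edgeR fit did not call. It was called with DESeq2 and with the replicate number as a block. The windows are RefSeq's (GRCm38.p6), from 250 bases before to 50 bases after an annotated start, and run 5′ to 3′ on the gene's strand. Csn2 is at chr5:87699376-87699675 on the minus strand and Cish at chr9:107296409-107296708 on the plus strand. Capitals mark matches to TTCNNNGAA and to the same ends with 1 more base between them.
Csn2: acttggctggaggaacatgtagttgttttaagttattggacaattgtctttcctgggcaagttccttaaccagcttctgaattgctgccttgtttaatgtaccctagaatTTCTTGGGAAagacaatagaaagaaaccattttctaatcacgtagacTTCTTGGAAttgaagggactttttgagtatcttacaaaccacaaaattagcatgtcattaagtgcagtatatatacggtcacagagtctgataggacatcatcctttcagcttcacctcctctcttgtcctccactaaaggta
Cish: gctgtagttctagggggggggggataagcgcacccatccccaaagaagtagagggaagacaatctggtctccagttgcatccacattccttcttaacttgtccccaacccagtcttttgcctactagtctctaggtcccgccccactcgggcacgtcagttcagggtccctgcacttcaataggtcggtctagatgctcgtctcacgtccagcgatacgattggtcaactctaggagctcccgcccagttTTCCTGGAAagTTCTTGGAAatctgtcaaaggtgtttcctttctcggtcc

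In Csn2 the match TTCTTGGAA begins 93 bases before the start and the longer-spaced TTCTTGGGAA 140 bases before it. In Cish TTCCTGGAA begins at the annotated start, and TTCTTGGAA follows after 2 bases. The exact word TTCTTGGAA, counted on both strands, thus stands in both windows, and 0.417% of all 32851 windows hold it. Both windows were picked for holding TTCNNNGAA, so nothing is read from this share. TTCNNNGAA stands in 8.3% of the windows and 2 matches or more in 0.457%, whereas the longer-spaced form stands in 6.95%. Windows were found for 8 of the 10 genes, with 2 for Pim1, and Socs2 and Osm had none. Besides Csn2 and Cish, Socs3 holds TTCNNNGAA (TTCTTAGAA, 154 bases before the start of a RefSeq transcript that begins inside the gene as annotated), and the windows of the other 5 genes hold no match. GENCODE places the first bases of Csn2 and Cish further upstream than these RefSeq starts. A match is a feature of the letters alone, and binding was not measured.

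Il2ra, the alpha chain of the interleukin-2 receptor (CD25), had low values that were lower still in the dYEATS cells. The gene (chromosome 2, 11642807 to 11693193, plus strand) had 50 and 70 counts with MLL-ENL, or 1.87 and 2.49 CPM, and 5 and 3 counts with dYEATS, or 0.170 and 0.105 CPM. The groups did not overlap and the log2 fold change was -3.94 ± 0.39, a 15.4-fold difference, on a transcript at 0.52 and 0.61 FPKM in its higher group. The genes beside it were not called. Rbm17, 38.6 kb away, had group means of 183 CPM with MLL-ENL and 171 CPM with dYEATS (adjusted p = 0.667), and Il15ra, 12.1 kb away, had means of 12.6 and 10.9 CPM (adjusted p = 0.635). Around Pim1, Tmem217, 29.9 kb away, and Fgd2, 111 kb away, were not called either (adjusted p = 0.544 and 0.465). On the side of Fgd2 the nearest gene with any count that does not overlap Pim1, Gm36199, 24.5 kb away, had 1 count.

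Osm encodes oncostatin M, a secreted cytokine of the interleukin-6 family whose gene is itself induced by STAT5 (chromosome 11, 4236420 to 4241026, plus strand). It had 9.86 and 11.9 CPM with MLL-ENL and 19.2 and 19.5 CPM with dYEATS. The dYEATS libraries were the higher ones, with a log2 fold change of 0.83 ± 0.14. Its receptor chain Osmr had 2 counts in all and did not pass the filter, and the shared chain Il6st lay at 4.03 and 4.55 CPM against 5.48 and 5.44 CPM.

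**Figure D2:**
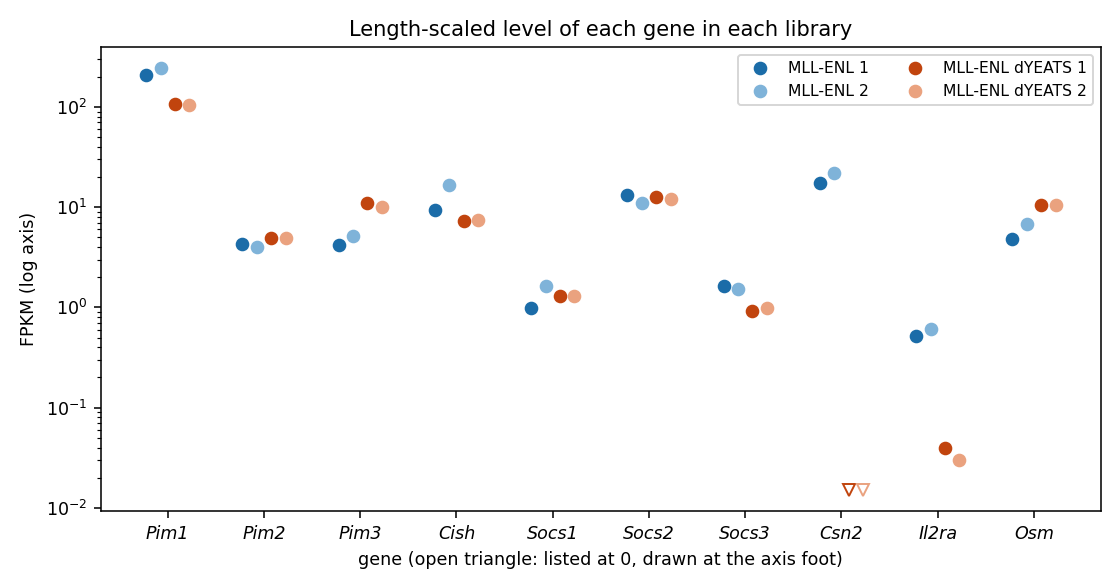
FPKM (log axis) of the 10 genes in each of the 4 libraries, 1 point per library and open triangles for values listed at 0. Pim1 stands at 105 FPKM or more in every library, Csn2 is second with MLL-ENL and listed at 0 with dYEATS, and the points of the groups overlap for Socs1 and Socs2.

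Ordered by FPKM, the MLL-ENL libraries gave Pim1 (mean 225), Csn2 (19.7), Cish (13.0), Socs2 (12.2), Osm (5.83), Pim3 (4.66), Pim2 (4.14), Socs3 (1.58), Socs1 and Il2ra (0.565). Cish and Socs2, Osm and Pim3, Pim3 and Pim2, and Socs3 and Socs1 overlapped between libraries there, so their order is not fixed. In the dYEATS libraries the order was Pim1 (106), Socs2 (12.4), Osm (10.6), Pim3 (10.5), Cish (7.35), Pim2 (4.92), Socs1, Socs3 (0.955), Il2ra (0.035) and Csn2 (0), with Osm and Pim3 overlapping.

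All 10 genes passed the filter on low counts. In the edgeR quasi-likelihood fit over all genes, with calls at an adjusted p under 0.05, 3 of them were called lower (Pim1, Csn2 and Il2ra), beside 9.84% of the 13245 genes tested, and 2 were called higher (Pim3 and Osm), beside 7.04%. In either direction 16.9% of all genes were called. The libraries of the groups did not overlap for 8 of the 10 genes, beside 64.3% of all genes tested. They were lower with dYEATS for 5 genes, beside 32.2%, and higher for 3, beside 32.1%. The median log2 fold change of the 10 genes was -0.42, beside -0.01 over all genes tested. Since the genes were chosen with this comparison in view, nothing is read from these shares. Without MLL-ENL replicate 1 or 2 the log2 fold changes were -1.10 and -0.44 for Cish and -0.68 and -0.87 for Socs3. For Socs2 they were 0.25 and -0.29, so its direction turned. Without dYEATS replicate 1 or 2 Osm was no longer called (log2 fold change 0.85 and 0.82). With the replicate number as a block Cish (-0.77) and Socs3 (-0.78) were called lower too. The share of all genes called in that fit was not counted, so nothing is read from it. DESeq2 called 4 of the 10 lower, Cish among them, beside 1390 of the 13245 genes tested.

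**Figure D3:**
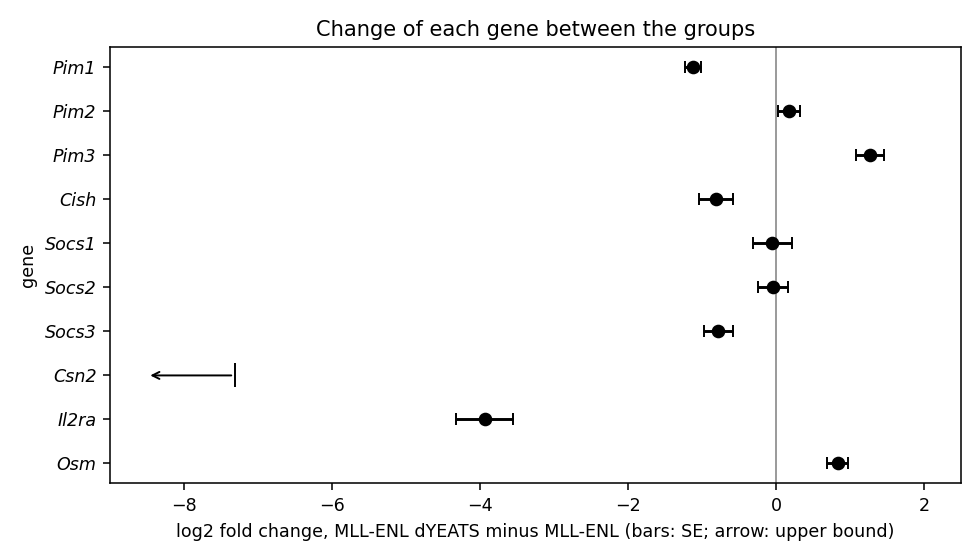
Log2 fold change (dYEATS minus MLL-ENL) of the 10 genes, points with SE over 2 libraries per group, and an arrow for Csn2 that starts at its upper bound of -7.31. Csn2, Il2ra, Pim1, Cish and Socs3 lie below 0, Pim3 and Osm above it, and Socs1, Socs2 and Pim2 near 0.

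The rest of the pathway was followed in lists of genes that hold none of the 10. Of 159 listed genes 58 did not pass the filter. Of the tested ones 11 fell, 9 rose and 81 were not called, so 19.8% were called, beside 16.9% of all genes. The counts depend on the libraries, since without an MLL-ENL library the spread rests on the close dYEATS pair. Counts with a library left out are not given, because the share of all genes called was not counted for those fits.

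Of 10 JAK and STAT genes, which carry the signal, 2 fell (20% called, beside 16.9% of all genes), and the other 8 were not called. The 2 STAT5 genes lay close in both groups. Stat5a was at 44.3 and 53.2 CPM against 47.6 and 46.9 CPM, with a log2 fold change of -0.05 (95% interval -0.38 to 0.29, adjusted p = 0.845). Stat5b was at 50.1 and 72.6 CPM against 55.4 and 52.2 CPM, with -0.19 (95% interval -0.68 to 0.30, adjusted p = 0.546). Both were overlapping, and RNA does not show how much of either protein was phosphorylated. Jak2, the kinase of the GM-CSF and interleukin-3 receptors, went from 60.1 ± 5.47 to 51.3 ± 2.20 CPM (mean ± SD, adjusted p = 0.253). Jak3 (adjusted p = 0.785), Tyk2 (0.788), Stat2 (0.262), Stat3 (0.932) and Stat6 (0.673) were not called either. Jak1, which serves interferon, interleukin-2 and interleukin-6 type receptors, fell from 163 and 209 CPM to 92.0 and 90.6 CPM (log2 fold change -1.03 ± 0.15, adjusted p = 0.0105). Stat4, which responds to interleukin-12, fell from 3.02 and 2.95 to 0.920 and 1.22 CPM (log2 fold change -1.48 ± 0.24, adjusted p = 0.0144). The call of Stat4 was lost without dYEATS replicate 1 (log2 fold change -1.29). It was also lost with limma on log2(FPKM + 0.1) (adjusted p = 0.0577) and with limma unfiltered (0.114), where that of Jak1 was lost too (0.118). Without MLL-ENL replicate 1 the log2 fold changes were -0.17 (Stat5a), -0.43 (Stat5b), -0.32 (Jak2), -0.26 (Tyk2), -0.21 (Stat2) and -0.12 (Stat3). Without MLL-ENL replicate 2 they were 0.09 (Stat5a), 0.10 (Stat5b), -0.13 (Jak2), 0.14 (Tyk2), -0.20 (Stat2), 0.10 (Stat3) and 0.25 (Stat6). Calls from these fits are not given. Their spread rests on the dYEATS pair, with a chi-square per degree of freedom of 1.99 against 89.8 for the MLL-ENL pair. The sign of Tyk2, Stat3, Stat5a, Stat5b and Stat6 (-0.04 without replicate 1) thus rests on which MLL-ENL library is kept.

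Receptor chains upstream showed a few large decreases among many that were not called. Of 25 tested chains 3 fell and 2 rose (37 were listed), so 20% were called, beside 16.9% of all genes. Kit, the stem cell factor receptor, fell from 50.4 and 66.9 to 2.62 and 3.91 CPM (adjusted p = 0.000681). Ghr, the growth hormone receptor, which signals through JAK2 and STAT5, fell from 57.8 and 77.5 to 11.3 and 10.6 CPM (log2 fold change -2.63 ± 0.18, adjusted p = 0.00102). Both Ghr groups were well apart, and its log2 fold change lay between -2.82 and -2.40 with a library left out. Il3ra, the alpha chain for interleukin-3, fell from 69.0 and 35.9 to 21.7 and 20.5 CPM (log2 fold change -1.31 ± 0.31, adjusted p = 0.0446). The MLL-ENL libraries of Il3ra differ, and its log2 fold change was -0.76 without replicate 1 and -1.71 without replicate 2. The call of Il3ra was lost with the 5 CPM filter (adjusted p = 0.0619) and in the 3 limma fits (0.085, 0.0804 and 0.221). The shared beta chain Csf2rb lay at 211 and 254 CPM against 238 and 235 CPM (adjusted p = 0.91) and the GM-CSF chain Csf2ra at 154 and 248 CPM against 195 and 184 CPM (0.833). Il2rg, the gamma chain that IL2RA works with, lay at 47.8 and 52.0 CPM against 62.6 and 66.2 CPM (0.0855), while Il2rb, the signalling beta chain, had 1 count in all. Csf1r and Il6ra rose by 0.96 and 0.61 on the log2 scale. Those calls ended without dYEATS replicate 1 (adjusted p = 0.119 and 0.344) or replicate 2 (0.0594 and 0.264).

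Most cytokine genes had few or no reads. Of 31 listed ligands 17 had no count in any library, among them Il2, Il3, Epo and Prl. Of the 5 tested 60% were called, beside 16.9% of all genes. Il12a, a subunit of interleukin-12, rose from 0.261 and 0.320 to 4.84 and 6.28 CPM (log2 fold change 4.23 ± 0.30, adjusted p = 0.00106). Csf1, the macrophage growth factor, rose from 7.62 to 14.8 CPM (adjusted p = 0.0325) and Flt3l fell from 6.13 to 3.14 CPM (adjusted p = 0.0255). The call of Csf1 ended without dYEATS replicate 1 (adjusted p = 0.0792) and that of Flt3l without replicate 1 or 2 (0.209 and 0.112). Lif, the neighbour of Osm and a cytokine of the same family, was at 0.336 and 0.711 CPM against 1.29 and 1.08 CPM and was not called (adjusted p = 0.109).

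Among 17 tested negative regulators besides the 10 genes 5.88% were called, beside 16.9% of all genes. Ptpn1, a tyrosine phosphatase that acts on JAK2 and TYK2, fell from 361 and 346 to 150 and 146 CPM (log2 fold change -1.25 ± 0.10, adjusted p = 0.00158), and the other 16 were not called. Socs4, Socs5, Socs6 and Socs7 were among those (adjusted p = 0.548, 0.884, 0.217 and 0.305). Of 5 genes of the ubiquitin ligase that SOCS proteins recruit, edgeR's test called 0, beside 16.9% of all genes (2 had an unadjusted p under 0.05, and DESeq2 called 1). The 2 genes with the smallest p were Cul5 (60.1 to 85.0 CPM, adjusted p = 0.0647) and Rnf7 (57.5 to 74.8 CPM, 0.0673). Both were higher with MLL-ENL replicate 1 left out (by 0.36 and 0.35 on the log2 scale) or replicate 2 left out (by 0.66 and 0.41). Among 12 genes of PIM substrates and partners 8.33% were called, beside 16.9% of all genes. Only Cdkn1b, the cell cycle inhibitor p27, passed the test, going from 23.4 to 34.1 CPM (adjusted p = 0.0471). That call was lost in 8 of 13 alternatives, among them library-total scaling (adjusted p = 0.0582), no filter (0.0608), the 5 CPM filter (0.0588) and dYEATS replicate 1 or 2 left out (0.438 and 0.366).

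Other known STAT5 targets showed no single direction, with 2 of 12 tested genes higher, 1 lower and 9 not called (25% called, beside 16.9% of all genes). Igf1, the growth factor that growth hormone induces through STAT5, had 1.38 and 1.21 CPM with MLL-ENL and no count with dYEATS, at least 12.4-fold lower (adjusted p = 0.00461). Ccnd1, which encodes cyclin D1, rose from 0.523 and 0.427 to 3.88 and 4.85 CPM (log2 fold change 3.19 ± 0.27, adjusted p = 0.00178). Cdkn1a, the inhibitor p21, rose from 43.4 to 78.1 CPM (adjusted p = 0.00672), and its call was lost without dYEATS replicate 1 or 2 (adjusted p = 0.0628 and 0.0705). The survival genes Bcl2l1 (adjusted p = 0.874) and Mcl1 (0.408) were not called. Of 13 tested targets of other STAT factors, 2 rose and 3 fell (38.5% called, beside 16.9% of all genes). Fos rose from 0.906 to 6.97 CPM (adjusted p = 0.00235) and Bcl3 from 9.26 to 16.5 CPM (adjusted p = 0.023). Lrg1 fell from 12.4 to 1.33 CPM (adjusted p = 0.0013), Icam1 from 19.0 to 10.4 CPM (0.00866) and Tap1 from 33.0 to 21.3 CPM (0.0339). Without dYEATS replicate 1 or 2 the calls of Bcl3 (adjusted p = 0.122 and 0.0743), Icam1 (0.0902 and 0.0621) and Tap1 (0.211 and 0.395) ended.

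**Figure D4:**
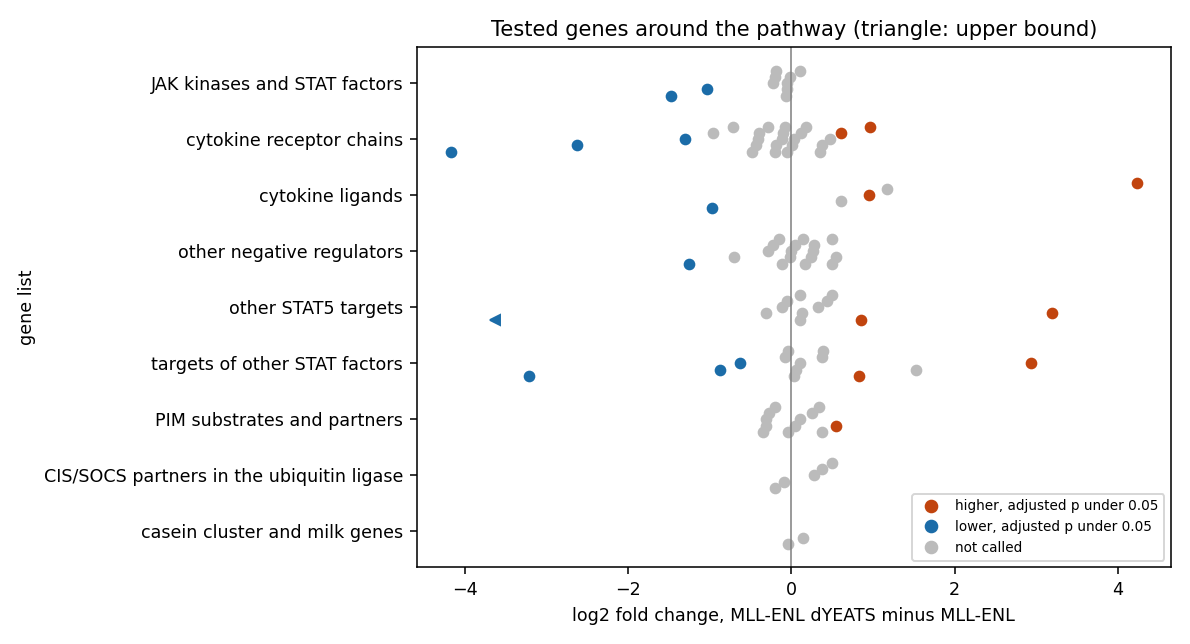
Log2 fold change (dYEATS minus MLL-ENL) of the tested genes around the pathway, 1 point per gene and 1 line per list, with called genes in red (higher) and blue (lower) and a triangle at the upper bound of Igf1. Most JAK and STAT genes lie near 0, and Kit (-4.17), Ghr (-2.63) and Il12a (4.23) stand far out in the receptor and ligand lists.

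Markers of cells in which Csn2 and Il2ra are best known were near absent. Of 12 mammary and epithelial markers 8 had no count in any library, including Epcam, Krt5, Krt14 and Krt18, and 1, the oestrogen receptor gene Esr1, exceeded 1 CPM, at a mean of 11.9 CPM with MLL-ENL and at 1.26 and 1.75 CPM with dYEATS (adjusted p = 0.00196). Their summed level was 10.1 to 13.8 CPM with MLL-ENL and 1.29 to 1.78 CPM with dYEATS, nearly all of it Esr1. Of 9 T-lymphoid markers Cd3e, Cd3g, Cd4, Cd8a and Trac had no count, and Lck alone exceeded 1 CPM, at 3.77 and 3.38 CPM against 0.817 and 0.803 CPM (adjusted p = 0.0035). The list summed to 3.59 to 3.96 CPM and 1.01 to 1.36 CPM. Of 8 mast cell and basophil markers 4 exceeded 1 CPM, with a sum of 15.5 to 18.6 CPM and 17.5 to 19.0 CPM. Within that list Gata2 rose 17.1-fold to a mean of 10.1 CPM (adjusted p = 0.000387) and Hdc fell from a mean of 8.56 to 2.81 CPM (adjusted p = 0.00501). The 8 B-lymphoid markers summed to at most 0.105 CPM in any library. Of 8 erythroid and megakaryocyte markers Klf1 alone reached 1 CPM, and the sums were 1.53 to 2.02 CPM and 1.47 to 2.01 CPM. The 9 NK and dendritic cell markers summed to 7.11 to 9.22 CPM and 2.44 to 2.66 CPM, with Ncr1 and Eomes at 0. Itgax rose from a mean of 0.0542 to 2.05 CPM (adjusted p = 0.00169), while Nkg7 fell from 3.98 to 0.329 CPM (0.0026) and H2-Ab1 from 3.93 to 0.0341 CPM (0.00182). The stem and progenitor list summed to 415 to 520 CPM and 518 to 521 CPM, most of it Ptprc and Spi1, which other leukocytes also express. In that list Cd48 fell from a mean of 4.23 to 0.0519 CPM (adjusted p = 0.00111), Kit fell as given above and Spi1 rose from 176 to 242 CPM (adjusted p = 0.0404). The part of the granulocyte and lymphoid markers in the differences of the 10 genes was not tested.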

How the data were processed

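Poly(A)-selected RNA of 4 libraries was analysed. The authors deposited expected counts per gene, whole numbers as deposited, and FPKM, scaled by gene length and library size. Per the submitters' processing notes reads were handled with RSEM 1.3.3, STAR 2.7.8a, FastQC 0.11.8 and cutadapt 2.3 (listed without order), on GRCm38. Settings, annotation release and strand: not given in the sources used here. Groups came from the titles. Counts were filtered with filterByExpr (13245 of 55426 genes left), scaled by TMM factors and tested with edgeR 4.0.16 (R 4.3.3; glmQLFit with legacy dispersions, glmQLFTest), with Benjamini-Hochberg adjustment over all genes and a call at adjusted p under 0.05. SE is the log2 fold change over the square root of F, and 95% intervals use the fit's degrees of freedom (median 5.41). A group with no counts was set to 3 counts per library (0.102 to 0.112 CPM), which covers counting error only. The fit was also run on simulated counts with the same dispersion for all genes and both groups. The MLL-ENL and dYEATS pairs differ in spread, so that run supports no call here. Positions and neighbours came from GENCODE M21 (GRCm38), start regions from RefSeq.

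The 10 genes, the pathway and marker lists and the tests were chosen with earlier results of these data known. Named pathway genes are the listed JAK and STAT genes (1 item is not reported here) and, per list, up to 3 called genes in each direction whose higher group averaged 1 CPM or more, or the 2 with the smallest p where none was called. The nearest genes with counts beside Pim1, Csn2 and Il2ra and the casein cluster genes are named too. Others (Csf2rb, Csf2ra, Il2rg, Il2rb, Il6st, Osmr, Lif, Bcl2l1, Mcl1, Socs4 to Socs7, Btn1a1, Fgd2 and single marker genes) were named after their values were seen. 1 listed gene, Fdcsp, had no matching symbol.

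Alternatives were other scalings, no filter, 5 CPM in 2 libraries, a replicate block, DESeq2 1.42.0, limma 3.58.1 on log2 FPKM with pseudocounts of 1 and 0.1, and each library left out. A group left with 1 library was assumed to vary like the other, although the MLL-ENL and dYEATS pairs differ in spread.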

Additional observations from a re-analysis of the deposited data

How the results depend on the processing

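Pim1, Csn2 and Il2ra, whose lower values chose the 10 genes, stayed lower in each of the 13 alternatives that kept them, which restates the choice and supports nothing. A stricter filter of 5 CPM removed Il2ra, Socs1 and Socs3. Pim3 kept its direction, with a log2 fold change of 1.03 to 1.55, and was not called with limma on unfiltered FPKM. Osm kept its direction (0.71 to 0.98) and was not called with limma or without either MLL-ENL dYEATS library. The median log2 fold change of the 10 genes, -0.42, was -0.06 over the 7 left at 5 CPM and -0.19 with limma on log2(FPKM + 1), with or without the filter, a scale that understates low genes. Leaving out a library gave -0.50 to -0.36.

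The 3 genes called lower became 5 with the replicate block and 3 to 6 with a library left out. The 2 called higher became 1 with limma at pseudocounts of 1 and 0.1, 0 with limma unfiltered, and 1 to 3 with a library left out. Of the pathway genes, 11 lower became 7 with a pseudocount of 0.1, 5 with limma unfiltered and 7 to 40 with a library left out. The 9 higher became 15 with the replicate block, 5 with either pseudocount, 3 with limma unfiltered and 4 to 45 with a library left out. The sign turned between leaving out MLL-ENL replicate 1 and replicate 2 for Tyk2 (-0.26 and 0.14), Stat3 (-0.12 and 0.10), Stat5a (-0.17 and 0.09), Stat5b (-0.43 and 0.10) and Stat6 (-0.04 and 0.25). In all 3 limma fits Csf1r, Il6ra, Il3ra, Csf1, Flt3l, Bcl3, Tap1 and Cdkn1b were not called. Jak1, Cdkn1a and Icam1 were not called with limma unfiltered, nor was Stat4 there or with a pseudocount of 0.1. The cause was not tested.

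Same-numbered deviations had a correlation of -0.0441 across genes. The dYEATS libraries differed by little more than counting error (chi-square per degree of freedom 1.99), so this value cannot decide whether replicate numbers pair the samples. With 2 libraries per group, all calls rest on the spread within 2 pairs, and genes at a few counts, such as Il2ra in the MLL-ENL dYEATS libraries, are limited by depth.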
